A study of Mus musculus with 21 samples.

Results

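Distal short low-methylated regions are stretches of mouse sperm DNA with low CpG methylation, a limited number of well-read CpGs and no CpG-rich low-methylated region nearby. They were located in a bisulfite library of the DNA that stays wrapped in nucleosomes in sperm of C57BL/6 mice (age and number of animals not given in the labels), 1 of the 21 samples of a series that profiled nucleosomes and histone variants and modifications in sperm and round spermatids. Mature sperm had been obtained by a swim-up step, which enriches for motile cells, and their mononucleosomes prepared with micrococcal nuclease, an enzyme that cuts the DNA between nucleosomes, as the labels' protocols state. The library has no replicate, so the values below describe 1 library and no test between samples was possible.

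A CpG entered the search if it had at least 5 reads on an autosome. It was called low if the pooled share of methylated reads over itself and 1 neighbour on each side was under 50%. Runs of low CpGs with gaps of at most 500 bp were called CpG-rich if they held 30 or more such CpGs and short if they held 4 to 29. Of 28849 runs of 4 or more CpGs, 9272 were CpG-rich and 19577 were short. The distal short regions are the 15745 short ones that lie more than 10000 bp, edge to edge, from every CpG-rich region, 80.4% of the short regions. Another 2333 short regions lay beyond 2000 and up to 10000 bp away, and 1499 lay within 2000 bp. The regions were thus selected on reads, level and number of CpGs in this library, and these values are given as a description.

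Most CpGs of a mammalian genome are methylated, and DNA without methylation is found mainly at CpG islands, which overlap many gene promoters. In somatic and embryonic stem cells, short CpG-poor regions of low but not absent methylation, away from promoters, are known as sites where transcription factors bind, many of them enhancers. In sperm, most nucleosomes are replaced by protamines, and the DNA that keeps its histones is known to be enriched in CpG-dense, unmethylated sequence. The sequence and gene annotation of mm9, the build of the table, were not used here, so no bases, motifs or genes are assigned to the regions. Coordinates are those of the table, which does not state whether positions count from 0 or 1.

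The library listed 15119333 autosomal CpGs with a median of 3 reads, and 23.5% of them had 5 or more. The smallest count was 1 read, so CpGs without reads are not listed. Listed CpGs per 100 bp thus depend on depth as well as on sequence. Coverage is likewise a mean over CpGs with at least 1 read. Outside all low-methylated regions the pooled level was 86.1% and mean coverage was 3.06 reads per listed CpG. Here and below, means of coverage and pooled levels leave out CpGs above 19 reads. Amplified reads can repeat a molecule and 1 read can cover several CpGs, so binomial intervals cover counting error only and are too narrow.

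A distal short region had a median length of 464 bp (quartiles 226 and 775 bp) and held a median of 8 CpGs of 5 or more reads (quartiles 5 and 15). All listed CpGs counted, the median was 16. Together the regions covered 8.62 Mb, with 2.30% of the listed autosomal CpGs and 3.35% of the CpG reads when positions above 19 reads are set aside. Their median distance to a CpG-rich region was 63827 bp, with quartiles at 29231 and 146955 bp. For comparison, a CpG-rich region had a median length of 1520 bp and 52 CpGs of 5 or more reads. All CpG-rich regions hold at least 30 such CpGs by the rule, and 4077 of the distal short regions (25.9%) also reached 30 CpGs when those under 5 reads were counted, so the number that divides the classes depends on depth.

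Under this rule, the levels of the distal short regions fell into 2 broad groups rather than around 1 typical value. The median level was 19.2%, with quartiles at 5.48% and 30.8%. The most crowded 2% wide bin was that from 0 to 2%, with 1805 regions, and 763 regions had no methylated read on their CpGs of 5 or more reads. The numbers then declined to 480 regions between 12 and 14% and rose again to 783 between 32 and 34%. Towards the limit of the rule they declined once more, to 18 between 48 and 50%, which comes at least partly with that limit. In all, 5494 regions (34.9%) had a level under 10%, 2539 (16.1%) from 10% to under 20%, and 7712 (49.0%) 20% or more. These limits were chosen after the levels were seen. The shares depend on the settings of the rule. With 8 in place of 5 reads, 72.3% of 13070 regions were under 10% and 18.2% had 20% or more. With 4 reads the shares were 20.7% and 61.5% of 18137. With a limit of 30% in place of 50% they were 63.6% and 10.5% of 10565. Among the 11668 regions with under 30 listed CpGs they were 20.4% and 63.0%.

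**Figure D1:**
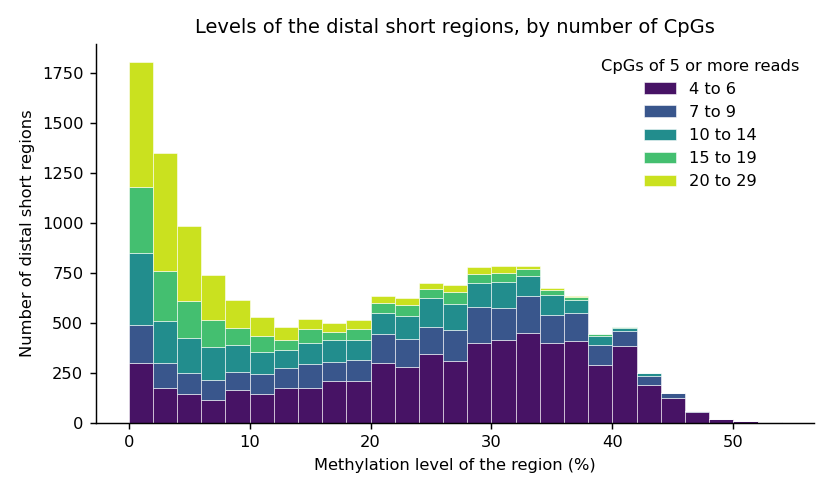
Number of distal short regions (vertical axis) by methylation level in percent (horizontal axis, bins 2% wide), with bars divided by the number of CpGs of 5 or more reads. Regions of 20 to 29 CpGs sit mostly under 10%, whereas regions of 4 to 6 CpGs form most of the broad rise around 30%. Runs end where the running level reaches the limit of the rule, which can shorten those of higher level.

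The 2 groups differed in size and in CpG number as well as in level. Regions under 10% had a median of 16 CpGs of 5 or more reads, a length of 662.5 bp and 5.16 listed CpGs per 100 bp. Those of 20% or more had a median of 6 CpGs, a length of 331 bp and 3.41 listed CpGs per 100 bp. Of the regions of 4 to 6 CpGs, 70.8% had a level of 20% or more and 14.5% had one under 10%. Of those of 20 to 29 CpGs, 9.51% had a level of 20% or more and 78.6% had one under 10%. Across the 15745 regions, level and number of CpGs had a Spearman correlation of -0.507. Both come from the same reads, and regions are not independent replicates. A run also ends where the running level reaches the limit of the rule. In partly methylated DNA, counting error at few reads can thus cut a stretch into short runs. The link of level to length and CpG number therefore comes at least partly with the rule, and how much was not tested. Counting all listed CpGs, 56.6% of the regions under 10% and 4.73% of those of 20% or more reached 30. The regions under 10% thus often held as many listed CpGs as the rule asks of a CpG-rich region, but with fewer of them at 5 or more reads.

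Single CpGs show what these levels are made of. The region on chromosome 17 from 80623867 to 80624541 stood closest to the medians of the group under 10%. It had 16 CpGs of 5 or more reads in 675 bp, 4 methylated of 110 reads and a level of 3.64% (Wilson 95% interval 1.42 to 8.98). All 4 methylated reads lay on its last 2 CpGs, with 2 of 11 and 2 of 5 reads, and the other 14 CpGs had none. The region on chromosome 15 from 98492680 to 98493327, next closest, had 3 methylated of 98 reads, a level of 3.06% (1.05 to 8.62). Its 3 methylated reads lay singly on 3 different CpGs.

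The region closest to the medians of all distal short regions lay on chromosome 5 from 104356767 to 104357225. Its 8 CpGs of 5 or more reads had 0 of 5, 2 of 6, 2 of 6, 1 of 6, 1 of 11, 1 of 12, 2 of 10 and 4 of 7 methylated reads. The level was 20.6% (12.5 to 32.2), and 9 of 26 reads were methylated at its CpGs under 5 reads. Methylated reads were thus spread over 7 of the 8 CpGs, with the highest share at the last. The region on chromosome 8 from 59098759 to 59099260 had 1 of 6, 1 of 5, 2 of 6, 0 of 8, 0 of 8, 3 of 6, 3 of 7 and 0 of 6. Its level was 19.2% (10.8 to 31.9), with 3 CpGs free of methylated reads between or beside partly methylated ones. The region on chromosome 9 from 96805458 to 96805958 had a level of 19.2% (11.8 to 29.7), and its first 5 CpGs had 1 of 10, 2 of 13, 2 of 12, 3 of 14 and 3 of 9 methylated reads, followed across a thinly read stretch by 2 of 5, 1 of 5 and 0 of 5.

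Of the regions of 20% or more, the one closest to their medians was on chromosome 18 from 37644459 to 37644797. Its 6 CpGs of 5 or more reads had 0 of 6, 3 of 5, 7 of 10, 0 of 10, 0 of 5 and 3 of 6 methylated reads, a level of 31.0% (19.1 to 46.0). Here CpGs without methylation stood beside CpGs of 50% and more. The next closest, on chromosome 18 from 32297646 to 32297976, had 3 of 7, 2 of 6, 3 of 12, 3 of 12, 1 of 6 and 3 of 5, a level of 31.3% (19.9 to 45.3). In this region every CpG of 5 or more reads carried both methylated and unmethylated reads.

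**Figure D2:**
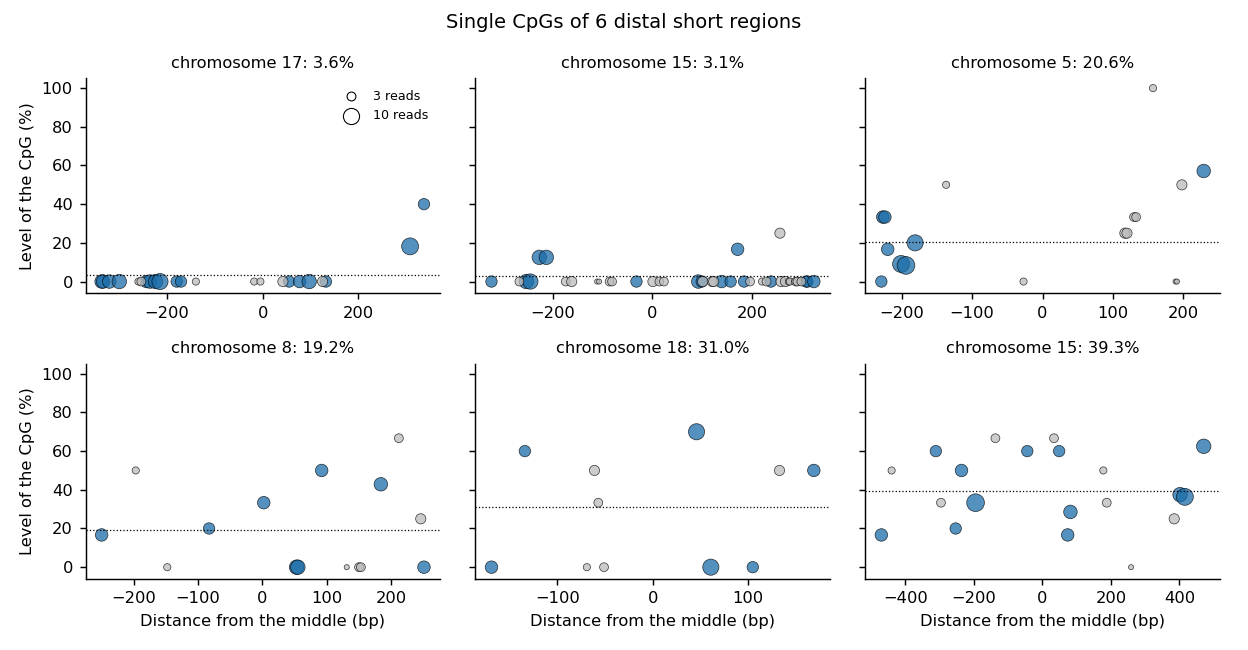
Level of each listed CpG (vertical axis, percent) by its distance from the middle of the region (horizontal axis, bp) in 6 distal short regions, titled by chromosome and level. Point area grows with reads, blue points are CpGs of 5 or more reads, grey points are CpGs under 5 reads that the rule did not use, and the dotted line is the level of the region. The regions at 3.6% and 3.1% are near 0 at almost every CpG, while that at 31.0% mixes CpGs from 0 to 70%. In the region at 39.3% the blue points lie from 16.7% to 62.5%.

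Over all regions of 20% or more, intermediate levels were also common at single CpGs. Among their 9278 CpGs with 10 to 19 reads, 80.03% had a level from 20 to 80%, 19.9% were below and 0.097% were above. If every CpG shared the level of its region, binomial counting would put 77.6% from 20 to 80%, 22.3% below and 0.0842% above. The observed shares lay within 3 percentage points of that calculation, which uses levels from the same reads. These CpGs also called the regions, and a running level under 50% limits how many can lie over 80%. Closeness of the shares thus comes at least partly with the rule. It cannot tell whether the CpGs of a region share its level or differ within the broad class from 20 to 80%. The same caution applies to the regions under 10%, where 96.2% of 9673 such CpGs were under 20%, against 96.4% by the same calculation. Levels were lower in the middle than at the ends. In regions of at least 6 CpGs, the level was 2.37% in the middle of 3 equal parts and 4.43% in the outer parts for those under 10%, and 27.6% and 31.2% for those of 20% or more. Runs end where the running level reaches 50%, so part of this comes with the rule.

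CpGs under 5 reads inside the regions did not enter the rule and give a second reading of the level. Their pooled level was 12.3% (Wilson interval 12.2 to 12.4) over 462323 reads on 177268 CpGs, against 86.1% outside all low-methylated regions. It followed the level classes, with 3.83% in regions under 10%, 14.7% in those from 10% to under 20% and 33.9% in those of 20% or more. Of the 10401 regions with at least 10 such reads, 9480 (91.1%) had a level under 50% at these CpGs, and 921 had 50% or more. Of all 500 bp windows of the autosomes with at least 10 reads on CpGs under 5 reads, 10.7% had a level under 50%. Among the regions of 20% or more the share was 77.9% of 3869.

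CpGs close to one another can lie on the same reads, so the reading was repeated with CpGs more than 150 bp, about the DNA of a nucleosome, from every CpG of 5 or more reads. Their pooled level was 15.6% (15.2 to 16.1) over 22992 reads. It was 6.22% in regions under 10% and 35.3% in those of 20% or more. Of the 767 regions with at least 10 such reads, 707 (92.2%) had a level under 50%, against 6.09% of the 500 bp windows with as many such reads. The windows, here and above, include the regions and were not matched to them in length or CpG number. Of these 767, 457 were regions under 10% and 169 were regions of 20% or more. In the latter, 126 (74.6%) had a level under 50% at these CpGs. In the 2563 regions shorter than 150 bp (16.3%), the defining CpGs fit within a single nucleosome and often on the same few reads. Their median level was 29.2%, and 174 of them had at least 10 reads on CpGs under 5 reads, of which 131 (75.3%) were under 50%.

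Pooled over regions, the level rose beyond the edges towards that of methylated DNA. Within 100 bp of the middle the level was 2.65% for the regions under 10%, and it reached 17.5% at 500 to 600 bp, 53.1% at 1000 to 1250 bp and 77.9% at 4750 to 5000 bp. For regions of 20% or more the level was 33.4% within 100 bp, 51.9% at 500 to 600 bp, 66.8% at 1000 to 1250 bp and 78.7% at 4750 to 5000 bp. Regions of 20% or more thus started higher, and both groups reached a similar pooled level. Single regions varied. At 1000 to 5000 bp from the edges, the 2 regions closest to the medians of the group under 10% had 83.7% and 90.4%. The 2 closest to the medians of the group of 20% or more had 41.7% and 50.1%. Listed CpGs per 100 bp were 5.73 within 100 bp of the middle for the regions under 10% and 3.18 for those of 20% or more, and 0.877 and 0.855 at 4750 to 5000 bp. Since a region needs 4 CpGs of 5 or more reads, higher density in the middle is part of the choice. Flanks 1000 to 5000 bp from the edges had a pooled level of 76.6% for the distal short regions, 41.8% for the short regions 2 to 10 kb from a CpG-rich region and 61.3% for the CpG-rich regions. The distance rule keeps CpG-rich regions out of the flanks of distal regions and puts one within 10 kb of the others, so this order comes with the choice and is no finding.

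**Figure D3:**
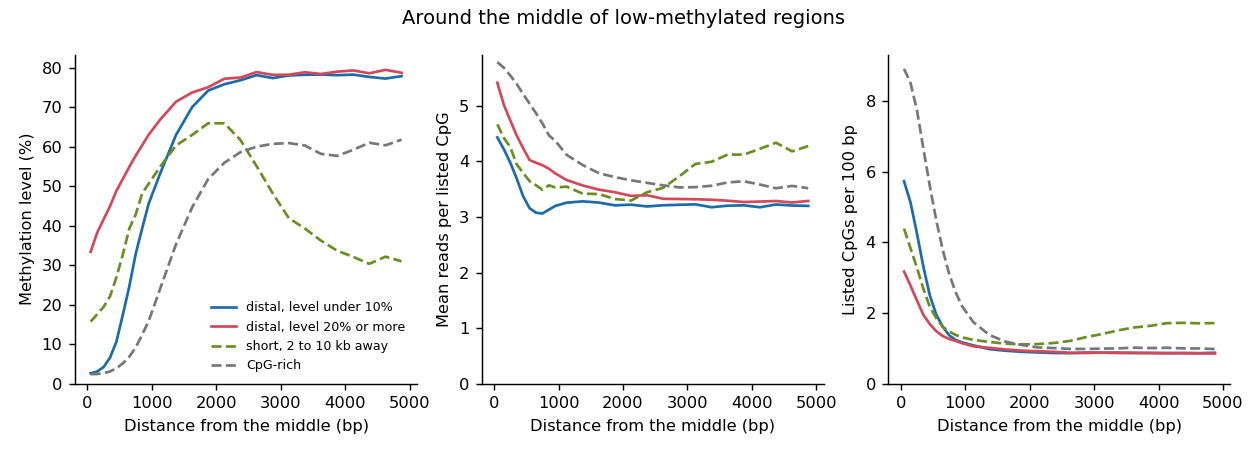
Pooled methylation level, mean reads per listed CpG and listed CpGs per 100 bp (vertical axes of the 3 panels) by distance from the middle of the region in bp (horizontal axes). Solid lines are distal short regions with a level under 10% (blue) and of 20% or more (red); dashed lines are short regions 2 to 10 kb from a CpG-rich region (green) and CpG-rich regions (grey). Both distal groups approach 78% methylation by 2500 bp, and the coverage of those under 10% dips at 700 to 800 bp to 3.06 reads. The rule can lower coverage just beyond the edges.

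The rule divides the distal regions from the short regions nearer to a CpG-rich region by distance, with the same limits for level and CpG number. The sets were not alike in other ways. The distal regions had a median of 8 CpGs and 3.96 listed CpGs per 100 bp, and those at 2 to 10 kb had 9 and 4.24. The median level was 19.2% in the distal regions and 14.3% in those at 2 to 10 kb. The pooled levels were 14.1% and 12.6%, a difference of 1.51 percentage points (Newcombe 95% interval 1.38 to 1.65). The median was higher in the distal regions on 18 of 19 autosomes and the pooled level on 16. The direction was not the same at every size. Among regions of 7 to 9 CpGs at 2 to 10 kb the median was 18.2%, below each of the 6 distance classes of the distal regions, whose lowest was 20% at 10 to 20 kb. Among regions of 20 to 29 CpGs it was 5.03% at 2 to 10 kb, above all 6 distal classes, whose highest was 4.83%. The difference in pooled level also turned round under stricter rules, to -1.30 points with a minimum of 8 reads and -0.257 points with a limit of 30% in place of 50%.

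Within the distal regions, those farther from a CpG-rich region were more often partly methylated. The share with a level of 20% or more was 41.9% of 2252 regions at 10 to 20 kb, 44.0% of 4353 at 20 to 50 kb, 48.7% of 3585 at 50 to 100 kb, 54.9% of 2730 at 100 to 200 kb, 58.6% of 2037 at 200 to 500 kb and 52.8% of 788 beyond 500 kb. The share thus grew up to 500 kb and was lower in the last class. The median number of CpGs was 9 in the first class and 7 at 200 to 500 kb, so CpG number moved with distance. With 4 to 6 CpGs the median level was 26.0% at 10 to 20 kb, 30% at 200 to 500 kb and 28.3% beyond 500 kb. With 7 to 9 CpGs it was 20%, 26.0% and 26.6%, and with 15 to 19 CpGs 6.02%, 10.4% and 11.3%. With 10 to 14 CpGs there was no steady rise. Its median was 13.3% at 10 to 20 kb, 11.9% at 20 to 50 kb, 19.2% at 200 to 500 kb and 12.6% beyond 500 kb. With 20 to 29 CpGs the median lay between 3.75% and 4.83% in all 6 classes. Over all 15745 regions, level and distance had a Spearman correlation of 0.113, a weak relation among regions that share 1 library.

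**Figure D4:**
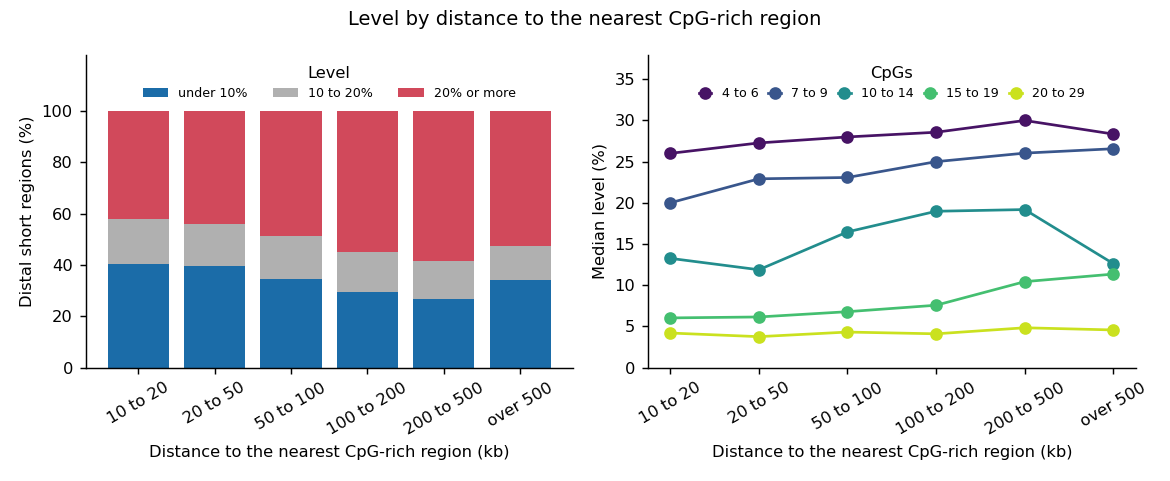
Left, share of the distal short regions (vertical axis, percent) with a level under 10%, from 10% to under 20%, and of 20% or more, by distance to the nearest CpG-rich region in kb (horizontal axis). Right, their median level (vertical axis, percent) over the same distances, with a line for each number of CpGs of 5 or more reads. The share of 20% or more is 41.9% at 10 to 20 kb and 58.6% at 200 to 500 kb, and regions of 20 to 29 CpGs stay between 3.75% and 4.83%.

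The values on both sides of the limits of the rule were as follows. The 2 distal regions nearest to 10000 bp lay at 10003 and 10006 bp, with levels of 3.57% (1 of 28 reads) and 4.69% (3 of 64 reads). The 2 short regions just short of it lay at 9994 and 9992 bp, with levels of 26.5% (44 of 166 reads) and 36.4% (8 of 22 reads). These single regions do not stand for their sets. The median level was 14.3% in all short regions at 2 to 10 kb and 15.4% in the distal regions at 10 to 20 kb. The 231 distal regions of 29 CpGs had a median level of 3.38%, and the 231 regions of 30 CpGs, which count as CpG-rich, had 3.61%. The medians on both sides of the CpG limit were thus close. At the lower limit, 2898 distal regions of 4 CpGs had a median of 29.2%, and 4951 runs of 3 CpGs, too short to count, had 31.3%.

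Coverage in this library counts reads of bisulfite-converted DNA prepared from mononucleosomes. No comparison was made with the sonicated genomic DNA of the series, so coverage is not read as nucleosome recovery alone. Coverage averaged 4.78 reads per listed CpG in the distal short regions and 3.29 in their flanks, a ratio of 1.45. The regions were called from CpGs of 5 or more reads, which raises the ratio by itself. Runs of 4 to 29 methylated CpGs with a running level over 80%, found with the same minimum, gap and distance from CpG-rich regions, share that choice. Among regions of 150 bp or longer, the 13182 distal short ones had 5.05 ± 1.45 reads per listed CpG and the 120508 methylated runs 4.92 ± 1.10 (mean ± SD over regions). The means differed by far less than the SD, which describes the spread between regions and not the precision of a mean. With fewer than 2 listed CpGs per 100 bp the values were 5.47 ± 1.77 and 4.94 ± 1.08. With 6 or more they were 4.78 ± 1.32 (2121 regions) and 4.92 ± 1.13 (283 runs). The direction thus changed with the density of listed CpGs, which itself depends on depth. Distal regions held more CpGs than methylated runs, with medians of 10 and 5. With regions of 4 to 6 CpGs alone, pooled coverage of the distal regions was 0.942 times that of the methylated runs.

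**Figure D5:**
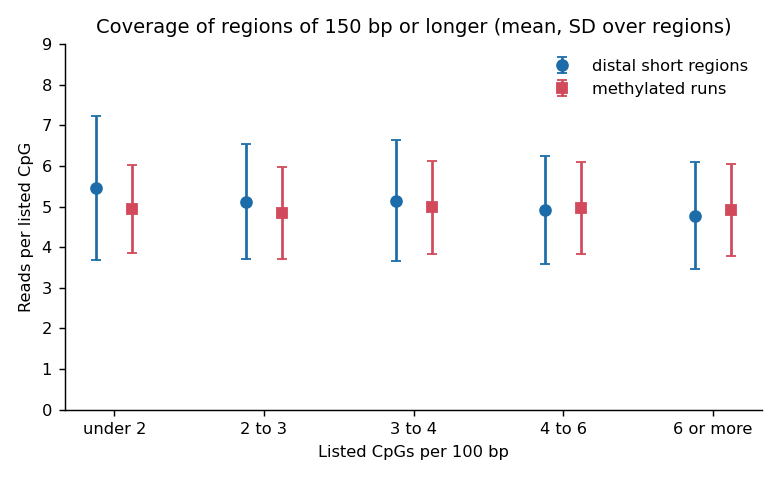
Reads per listed CpG (vertical axis) of distal short regions (circles) and of methylated runs called with the same read minimum (squares), all of 150 bp or longer, by listed CpGs per 100 bp (horizontal axis). Points are means and bars are SD over regions. The bars of the 2 kinds overlap in all 5 density classes, which does not tell whether the means differ.

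Within the distal regions coverage was lower in the less methylated ones. Pooled coverage was 4.46 reads per listed CpG in regions under 10%, 4.78 in those from 10% to under 20% and 5.41 in those of 20% or more. Regions of all lengths under 10% had lower coverage than those of 20% or more in each of the 5 density classes, with 4.85 and 5.24 reads at fewer than 2 listed CpGs per 100 bp and 4.42 and 6.12 at 6 or more. Regions of few CpGs enter only if those few are well read, and the groups differ in CpG number. Among regions of 4 to 6 CpGs and 150 bp or longer, coverage was 3.801 reads in the 557 under 10% and 4.581 in the 2758 of 20% or more. It was again lower under 10% in all 5 density classes. The number of CpGs of 5 or more reads itself depends on depth, so holding it fixed does not remove this choice. In the profiles, coverage of the regions under 10% fell to 3.06 reads at 700 to 800 bp from the middle, below the 3.199 reads at 4750 to 5000 bp.

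Distal short regions occurred on all 19 autosomes at similar density, with 104 ± 12.5 per 100000 listed CpGs (mean ± SD over 19 autosomes). The range was 84.0 on chromosome 1 to 130 on chromosome 10. The median level ran from 14.04% on chromosome 11 to 24.1% on chromosome 10. Their median distance to the nearest other distal region was 16191 bp, and 3220 of them (20.5%) had one within 1000 bp. Joining those left 14003 separate places. Of 2417 windows of 1 Mb with listed CpGs, 347 held none and the median held 5. The richest windows lay side by side on chromosome 7, with 52 regions at 52 to 53 Mb and 46 at 51 to 52 Mb, at median levels of 10.7% and 11.5%. The next were at 37 Mb on chromosome 18 with 45 regions (median level 29.2%), at 170 Mb on chromosome 2 with 43 (26.1%) and at 150 Mb on chromosome 5 with 41 (28.6%). The window on chromosome 18 also held 26 CpG-rich regions, and only 2 of its distal regions were under 10%.

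Of the 5 longest regions, 4 had a level under 10%. The first, 3031 bp long, lay on chromosome 4 from 122561711 to 122564741, with 12 methylated of 180 reads on 27 CpGs, a level of 6.67% (3.85 to 11.3), and 85 listed CpGs. The next 3 had 5.85% on chromosome 8 from 11476368 to 11479317, 7.14% on chromosome 4 from 88918845 to 88921732 and 6.96% on chromosome 2 from 115683739 to 115686484. The fifth, on chromosome 10 from 42722044 to 42724752, stood apart with 26.6% (20.3 to 34.1) over 2709 bp. At its CpGs under 5 reads, 35 of 112 reads (31.3%) were methylated, close to the level the rule used. The 5 regions first in order among those of 29 CpGs all lay on chromosome 1, with levels from 3.52% to 7.73%.

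Some regions had no methylated read on their CpGs of 5 or more reads at a depth of 100 reads and more. The first 5 in order among those with at least 100 reads lay on chromosome 1. The best read of them spanned 387 bp from 36300687 to 36301073, with 0 of 201 reads on 26 CpGs, which allows a level of up to 1.88% by the Wilson interval. All 12 other CpGs in it, under 5 reads each, also had 0 methylated of 39 reads, while its flanks had 87.3%. The regions from 21069063 to 21069707, 44175278 to 44176029, 72290294 to 72290615 and 74708538 to 74709352 had 0 of 133, 0 of 132, 0 of 109 and 0 of 139 reads. At their CpGs under 5 reads, in the same order, 1 of 103, 0 of 16, 2 of 44 and 1 of 24 reads were methylated.

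The regions farthest from any CpG-rich region were a mixed set. The farthest, 5907941 bp away on chromosome 15 from 19384428 to 19385369, had 33 of 84 reads methylated on 12 CpGs, a level of 39.3% (29.5 to 49.98), and each of the 12 carried both kinds of read. It lay 365 bp from the next farthest, from 19385734 to 19385842, with 12 of 41 reads and 29.3% (17.6 to 44.5). On chromosome 1, the region from 114313070 to 114313606 had 8 of 191 reads and 4.19% (2.14 to 8.05), and that from 113760931 to 113761661 had 1 of 76 reads and 1.32% (0.233 to 7.08), in flanks of 84.8% and 95.9%. The region on chromosome 14 from 3209731 to 3209763 had 4 of 32 reads on 4 CpGs within 33 bp, all with 8 reads.

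The 5 best covered regions were all shorter than 50 bp, so the same reads can cover several of their CpGs. On chromosome 6 from 113841453 to 113841497, 9 CpGs had 14 ± 4.64 reads each (mean ± SD) and 4 of 126 reads were methylated, a level of 3.17%. On chromosome 12 from 119046182 to 119046230 the 4 CpGs had 4 of 12, 5 of 17, 6 of 16 and 4 of 15 methylated reads, a nearly even 31.7% (21.3 to 44.2). On chromosome 8 from 118072032 to 118072052, by contrast, 3 CpGs had 0 of 14, 0 of 14 and 0 of 13 methylated reads and the one between them 10 of 14. The other 2, on chromosome 8 from 119325386 to 119325428 and chromosome 11 from 67112009 to 67112055, had levels of 44.7% and 35.7%.

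A small number of regions held CpGs with very many reads. At least 1 CpG above 19 reads was found in 322 regions (2.05%), and above 100 reads in 74, which held 16.0% of the reads on all CpGs that the rule used. The median level of the 322 was 24.5%, against 19.05% in the other regions. The 3 regions with the highest levels among those with at least 100 reads were all of this kind, with 52.1% on chromosome 2 from 27353424 to 27353784, 50% on chromosome 10 from 7236053 to 7236313 and 46.7% on chromosome 5 from 80243389 to 80243579. In the first, 233 of 295 and 106 of 140 reads were methylated at its outer CpGs and 5 of 95, 2 of 93 and 2 of 45 at those between. That region is 1 of 10 on chromosome 2 from 27351204 to 27357240, the largest group with gaps of at most 1000 bp, chosen after its values were seen. Its CpGs reached 315 reads, and the CpGs under 5 reads inside the 10 regions had a level of 84.8% over 66 reads.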

How the data were processed

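The deposited table lists autosomal and sex-chromosome CpGs with 2 raw counts each, per the file headers: reads in total and reads that were methylated. No scaling by the authors is visible in these counts. Bowtie and mm9 are named in the submitters' processing notes; trimming, duplicates and conversion rate: not given in the sources used here. Regions were called as the report describes, with 1 neighbour on each side and no limit on its distance. A region's level is methylated over all reads of its CpGs with 5 or more reads. Intervals are 95% Wilson intervals; the interval of a difference combines them after Newcombe. The members, the comparison sets and the level classes were chosen with earlier results of these data known. Named regions are the 5 longest, most CpGs, farthest, best covered and lowest level (at least 100 reads), the 3 highest and 3 nearest to the medians, and the 2 on each side of 10000 bp, and the 5 richest windows of 1 Mb. Regions nearest to the medians of the level classes, the methylated runs and the largest group were added after seeing the data. Python 3.11.15, numpy 2.4.6, pandas 2.3.3, scipy 1.17.1 and matplotlib 3.10.9 were used, tested on simulated data. Alternatives were other read minimums, limits, windows, gaps, distances and CpG numbers. The other 20 samples were not analysed here.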

Additional observations from a re-analysis of the deposited data

Results flagged for a closer look

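The rule takes autosomes only. Applied to the X chromosome, which the report does not use, it found 560 distal short regions beside 36 CpG-rich ones, with a median of 8 CpGs and a median level of 3.36%. CpGs under 5 reads inside them had a level of 5.81% over 22281 reads. On X, 6.14% of the CpGs had 5 or more reads, against 23.5% on the autosomes, and mean coverage inside the regions was 3.94 reads per listed CpG, against 4.78. The part of depth in the low median level was not tested.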

How the results depend on the processing

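The 5 main results were recomputed under 14 alternatives each. The main values were 15745 regions, a median level of 19.2%, a level of 12.3% at unused CpGs, a difference in pooled level of 1.51 points from short regions at 2 to 10 kb, and a coverage ratio over flanks of 1.45; below, values follow in that order, without the number of regions. The number of regions stayed within 1.5 times 15745 except at more than 50000 bp, where it was 9140. Unused levels stayed under 24% in all 14. Ratios stayed above 1, but every alternative calls regions from CpGs at or above a read minimum, which raises the ratio by itself.

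With a minimum of 4 reads the values were 25%, 17.9%, 2.34 and 1.38. With 8 reads they were 3.24%, 5.27%, -1.30 and 1.75, and with a limit of 30% they were 5.88%, 5.56%, -0.257 and 1.44. The difference thus changed sign under both, and the cause was not tested. With 300 bp gaps the median, unused level and ratio were 15.4%, 10.5% and 1.56, and with 1000 bp gaps 21.0%, 14.2% and 1.38. Beyond 50000 bp all 4 values were 21.4%, 13.4%, 2.66 and 1.49. With CpG-rich regions from 20 CpGs they were 23.1%, 16.8%, 2.75 and 1.46. With at least 6 CpGs the first 3 were 13.2%, 10.6% and 1.26. The unused level was 13.0% with a running level over 5 CpGs. Unused level and ratio were 12.2% and 1.45 beyond 5000 bp, and also with CpGs over 19 reads left out. Of alternatives added after seeing the data, regions of 150 bp or longer gave 16.7%, 12.2% and a ratio of 1.42. Those without a CpG over 19 reads gave an unused level of 12.2% and a ratio of 1.45. Those with under 30 listed CpGs gave 25%, 23.8%, 1.94 and 1.59.

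No paired analysis was possible because the values come from 1 library. At a median of 3 reads per CpG, single CpGs and the smallest regions have wide intervals, and CpG-rich stretches read too thinly can be counted as short regions: with a minimum of 8 reads, 2746 CpG-rich regions were found, against 9272.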
